A study of Mus musculus with 5 samples.

Results

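The globin and red cell genes examined here are Hba-x, Hbb-y, Hbb-bh1, Hba-a1, Hba-a2, Hbb-b1, Alas2, Slc4a1 and Klf1, taken by name as readouts of the blood carried in embryonic pituitaries. Of these 9 genes, 6 had a row among the 20097 gene names of the all-gene table: Hba-x, Hbb-y, Hbb-bh1, Alas2, Slc4a1 and Klf1. Hba-a1, Hba-a2 and Hbb-b1 were not analysed here. RNA came from pituitaries of mouse embryos of mixed B6;129 background at stage e12.5. The 2 knockout samples, labelled KO 13 and KO 16, had both Itgb1 alleles floxed and carried Pitx1-cre. The 3 controls, labelled WT 9, WT 10 and WT 12, were Itgb1 f/f without Cre, so no group was free of the floxed allele. The labels name the tissue as pituitary and the cells as epithelial, and describe the libraries as separate biological replicates. Cre under Pitx1 control acts in oral ectoderm and the pituitary derived from it, while blood and vessels reach the gland from outside.

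Mouse embryos make red cells in overlapping waves. Primitive erythroblasts from the yolk sac fill the circulation first and carry embryonic globins: the alpha-like chain zeta from Hba-x, and the beta-like chains epsilon-y from Hbb-y and beta-h1 from Hbb-bh1. Definitive cells from the fetal liver follow with adult alpha globin, from Hba-a1 and Hba-a2, and adult beta globin, from the Hbb-b1 and Hbb-b2 type genes. Alas2 encodes the first enzyme of heme synthesis in red cells, Slc4a1 encodes the anion exchanger band 3 of their membrane, and Klf1 encodes a zinc finger factor that drives globin and other red cell genes.

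The deposited counting windows were shorter than the genes, and for globins this decided which exons were counted. Set against gene coordinates from the authors' list of changed genes, windows of plus-strand genes began a median of 800 bp inside the gene (490 genes). Those of minus-strand genes were trimmed by a median of 400 bp at each end (529 genes). The exact trim held for 79.39% of the plus-strand and 81.47% of the minus-strand genes. The RefSeq gene models of GRCm38 were 800 or 801 bp longer than the mm9 windows of Hba-x, Hbb-y, Hbb-bh1, Alas2 and Slc4a1. Only distances within the gene were carried from one build to the other.

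Placed by this trim, the window of Hba-x held all of exons 2 and 3, or 442 of the 801 exon bases of its GENCODE transcript. The window of Hbb-y held 60 of 633 exon bases, all at the end of exon 2, and that of Hbb-bh1 held 72 of 613. The rest of both windows was intron. The adult beta globin listed as Beta-s had 81 of 628 exon bases in its window. Hba-a1 and Hba-a2 are 815 and 819 bp long in RefSeq, so a trim of 800 bp leaves 15 and 19 bp, while the shortest window listed was 202 bp. Of 1585 RefSeq protein-coding genes shorter than 1002 bp, 1.96% had a row, against 81.82% of the 20315 longer ones. For Alas2 the window held 1910 of 2037 exon bases and for Slc4a1 it held 3925 of 4545. The RefSeq model of Klf1 did not match its window in length, so its exons were not placed.

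**Figure D1:**
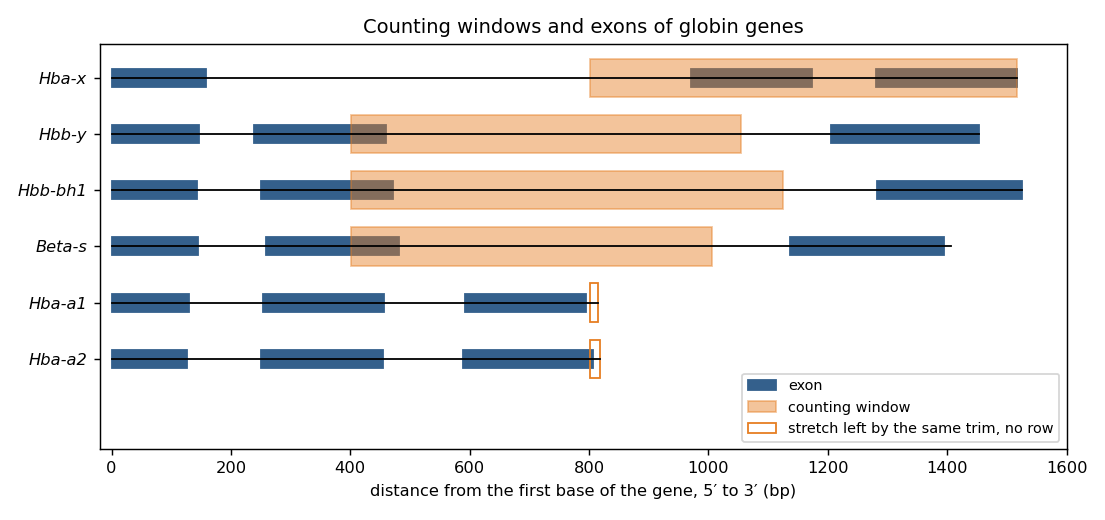
Counting windows (orange) over the exons (blue) of 6 globin genes, drawn as the distance in bp from the first base of the RefSeq gene; open orange boxes show the 15 and 19 bp that the same trim leaves of Hba-a1 and Hba-a2, which had no row. The window of Hba-x covers exons 2 and 3, while those of the beta-like genes cover the end of exon 2 and the second intron.

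The exon sequence behind these levels is shown because it sets how many reads each globin could gain and how well reads of one could be told from another. Exon 2 of Hba-x, which lay whole within its window, is on the plus strand of GRCm38 at chr11:32277569-32277773. The last 60 bases of exon 2 of Hbb-y (chr7:103852748-103852807), Hbb-bh1 (chr7:103842691-103842750) and Beta-s, called Hbb-bs in GRCm38 (chr7:103827448-103827507), are on the minus strand. Each is written 5′ to 3′, from GENCODE transcripts. Capitals mark bases that differ from Hbb-y.
Hba-x: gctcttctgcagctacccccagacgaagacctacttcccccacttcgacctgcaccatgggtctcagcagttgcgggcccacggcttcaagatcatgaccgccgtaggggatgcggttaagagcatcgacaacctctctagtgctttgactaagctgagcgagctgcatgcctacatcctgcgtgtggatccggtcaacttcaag
Hbb-y: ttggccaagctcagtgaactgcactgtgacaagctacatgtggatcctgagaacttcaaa
Hbb-bh1: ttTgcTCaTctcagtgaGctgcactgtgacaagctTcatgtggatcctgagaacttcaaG
Beta-s: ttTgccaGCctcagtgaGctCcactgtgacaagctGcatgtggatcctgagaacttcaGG
Hbb-bh1 differed from Hbb-y at 7 and Beta-s at 8 of these 60 bases. The handling of reads shared between such copies was not given in the sources used here; levels of single beta-like genes are therefore uncertain.

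Levels are the authors' tags per 10000000 total tags of a library. The targeted gene, Itgb1, stood at 446.36 in library 13 and 186.36 in library 16, against 272.73, 426.36 and 430.91 in controls 9, 10 and 12. Library 13 thus lay above every control as deposited, against its label. After background subtraction and TMM scaling, Itgb1 was at 281.85 in library 13 and 115.53 in library 16, against 402.94, 373.74 and 449.58, below every control in both. The Itgb1 window is not limited to the floxed exons. The libraries labelled KO 13 and KO 16 are called libraries 13 and 16 from here. Whole reads recovered over the listed genes came to 5507288 (library 13) and 4480809 (library 16), and to between 5445240 and 6143263 among controls. Library 16 stood apart by its background: autosomal olfactory and vomeronasal receptor genes, silent in most tissues, held 1.50 tags per kilobase there and 0.480 in library 13, against 0.159 to 0.396 for controls. The median gene was 0.97 higher on the log2 scale in the knockout pair than in the controls, so changes are also given relative to it. Bulk levels cannot tell fewer cells of a type from less RNA per cell.

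Hba-x was by far the most abundant of the globins measured, and its levels overlapped between the groups. Hba-x (mm9 chromosome 11, 32177400 to 32178115) stood at 190.91 tags in library 13 and 487.27 in library 16, against 138.18, 243.64 and 337.27 in controls 9, 10 and 12. Library 16 lay above every control and library 13 within them. The counting intervals (95%, exact Poisson, counting error only) were 166 to 219 in library 13 and 447 to 530 in library 16. They were 117 to 162, 215 to 275 and 304 to 373 in the controls, so intervals did not overlap even among the 3 controls. Their range was 2.44-fold.

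The group means of Hba-x were 339 ± 210 tags in the knockout libraries (SD, n = 2) and 240 ± 99.6 in the controls (SD, n = 3). The fitted log2 change was 0.44 (SE 0.54; limma, adjusted p = 0.54), or -0.53 relative to the median gene. An exact 2-sided permutation test with 10 possible arrangements gave p = 0.5, where the smallest possible is 0.1. Without library 16 the fitted change was -0.23 (adjusted p = 0.777).

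By tags per kilobase of window, Hba-x ranked 51st in library 13 and 6th in library 16 of 20097 genes, and 35th, 34th and 22nd in controls 9, 10 and 12. Background was a small part of its high level. At the receptor-gene rate it would make up 0.18% in library 13, 0.22% in library 16 and at most 0.13% in the controls. Scaling by TMM divides all values of a library by a single factor. After subtraction of background and this scaling, Hba-x was at 126.76 in library 13 and 485.49 in library 16, against 213.43, 223.09 and 358.01 in the controls. On that scale library 13 lay below and library 16 above every control.

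The embryonic beta-like globins were close to the detection limit in every library. Hbb-y (mm9 chromosome 7, 111000668 to 111001321) had 11 and 5 reads in libraries 13 and 16, against 2, 1 and 8 in controls 9, 10 and 12. In tags these were 10 and 4.55, against 1.82, 0.91 and 7.27, and the groups overlapped. Hbb-bh1 (mm9 chromosome 7, 110990552 to 110991276) had 2 and 7 reads in libraries 13 and 16, against 1, 0 and 4 in the controls. Its background share would be 19.1% in library 13 and 17.1% in library 16, against 20.6% in control 9 and 3.17% in control 12. The count of 0 in control 10 allows up to 3 reads, or 2.73 tags, as a 1-sided limit; the 2-sided exact Poisson interval reaches 3.35 tags.

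Neither embryonic beta-like gene passed the test. The log2 change of Hbb-y was 1.14 (SE 0.88; limma, adjusted p = 0.344), or 0.17 relative to the median gene. That of Hbb-bh1 was also 1.14 (SE 0.98; limma, adjusted p = 0.391), again 0.17 relative to that gene. The windows of Hba-x and the beta-like genes also differ in exon content, and its part in their difference in level was not tested. Per kilobase of exon inside the window, Hba-x had 432 and 1102 tags in libraries 13 and 16 and 313, 551 and 763 in the controls. Hbb-y had 167 and 75.8, against 30.3, 15.2 and 121. Hbb-bh1 had 25.3 and 88.3, against 12.6, 0 and 50.6. The gap was narrower on this scale, which divides by fewer bases for the beta-like genes. Hba-x was still the higher in each library. This measure divides all tags of a window, reads from introns included, by its exon bases.

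Embryonic beta-like reads made up a larger share of all beta-like reads in the knockout libraries than in the controls, on very few reads. Embryonic here means Hbb-y and Hbb-bh1, and the whole adds Beta-s, Hbb-b2 and Hbb-bh2, a minor gene of the cluster. The share was 13 of 26 reads (50%, exact 95% interval 29.9 to 70.1) in library 13 and 12 of 31 (38.7%, 21.9 to 57.8) in library 16. In controls 9, 10 and 12 it was 3 of 19 (15.8%, 3.38 to 39.6), 1 of 19 (5.26%, 0.13 to 26.0) and 12 of 32 (37.5%, 21.1 to 56.3). The interval of library 16 overlapped that of every control. The interval of library 13 overlapped those of control 12 and control 9 but not that of control 10. No test was made of this share, and a matching share for the alpha-like genes could not be computed without Hba-a1 and Hba-a2.

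Adult beta globin rows were as low. Beta-s stood at 3.64 and 6.36 tags in libraries 13 and 16, against 10.91, 8.18 and 5.45 in the controls. Hbb-b2, another adult beta gene, stood at 6.36 and 9.09, against 3.64, 8.18 and 12.73. Neither passed the test in limma: Beta-s had a log2 change of -0.61, or -1.58 relative to the median gene, and Hbb-b2 one of 0.04, or -0.93 relative to it.

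Slc4a1, the band 3 gene, was highest in library 16 and within the controls in library 13, the same placing as Hba-x. Slc4a1 (mm9 chromosome 11, 102210534 to 102226195) stood at 43.64 and 119.09 tags in libraries 13 and 16, against 29.09, 47.27 and 50.91 in the controls. The groups overlapped, the log2 change was 0.79 (SE 0.59; limma, adjusted p = 0.331) and the exact permutation p was 0.4. Background would make up 17.2% of its level in library 13, 19.7% in library 16 and 4.9% to 13.9% for controls. On the subtracted and TMM-scaled values Slc4a1 was at 24.02 and 95.47, against 38.72, 37.65 and 51.41.

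Alas2 did not share the high level of library 16. Alas2 (mm9 chromosome X, 146982760 to 147005165) stood at 76.36 and 78.18 tags in libraries 13 and 16, against 31.82, 73.64 and 92.73 in the controls, so both knockout libraries lay within the controls. Its log2 change was 0.35 (SE 0.58; limma, adjusted p = 0.643) and turned to -0.10 without control 9 (adjusted p = 0.926). The window of 22406 bp took up more background: 43.0% of the level in library 16 and 14.1% in library 13, against 3.85% to 18.2% in the controls. On the subtracted and TMM-scaled values Alas2 was at 43.63 and 44.52, against 40.24, 59.37 and 94.67.

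Klf1 was measured by few reads. Klf1 (mm9 chromosome 8, 87426627 to 87429194) had 4 and 13 reads in libraries 13 and 16, against 5, 3 and 3 in the controls. Library 16 was the highest, at 11.82 tags, with a counting interval of 6.29 to 20.2 that overlapped the interval of each control. Its log2 change was 0.86 (SE 0.87; limma, adjusted p = 0.46), or -0.11 relative to the median gene.

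**Figure D2:**
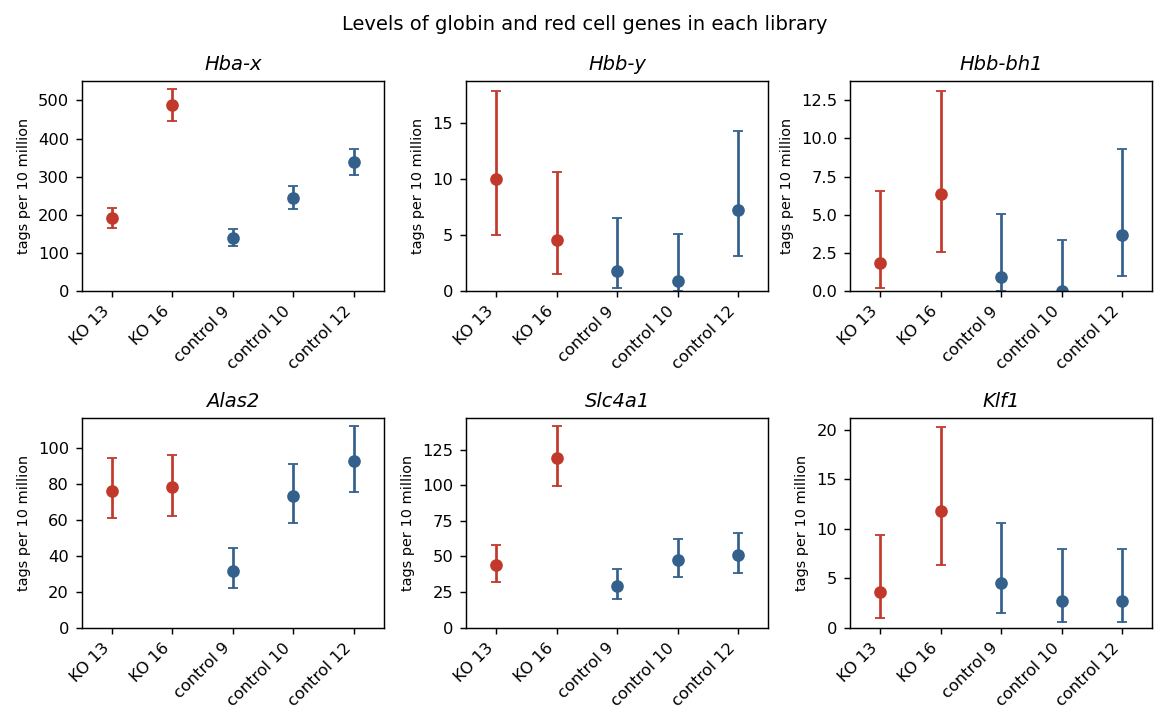
Levels in tags per 10000000 total tags of 6 red cell genes in libraries 13 and 16 (red) and controls 9, 10 and 12 (blue); bars are exact 95% Poisson intervals, which cover counting error only. Hba-x, Hbb-bh1, Slc4a1 and Klf1 were highest in library 16, while Alas2 was at 76.36 and 78.18 tags in the knockout libraries, inside the range of the controls.

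No member passed an adjusted p under 0.05 in either direction in limma, where the percentage of the 19313 tested genes that passed was 0. On recovered reads edgeR called 0 of 15623 genes, with 457 at an unadjusted p under 0.05. It fitted only 3 members: Hba-x, Alas2 and Slc4a1. DESeq2 called 25 genes, but gave no adjusted p for any member, so no member could be called there. In limma none of the 6 was at an unadjusted p under 0.05, while 29.2% of all tested genes were. Both knockout libraries lay above every control for 0 of the 6 members, against 50.2% of all tested genes, and below every control for 0, against 0.202%. Library 16 lay above every control for 4 members, against 72.9% of genes, and library 13 did for 1, Hbb-y, against 73.3%. No member was below every control in library 16 (7.86% of genes) or in library 13 (1.46%). On the subtracted and TMM-scaled values, library 16 was above every control for the same 4 members, Hba-x, Hbb-bh1, Slc4a1 and Klf1 (42.4% of 17979 genes), and below for 0 (39.4%). Library 13 was above every control for 0 (23.6%) and below for 2, Hba-x and Slc4a1 (20.2%). Neither scale had a member on the same side of all controls in both libraries; on the second, 8.59% of genes were above and 7.59% below in both.

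**Figure D3:**
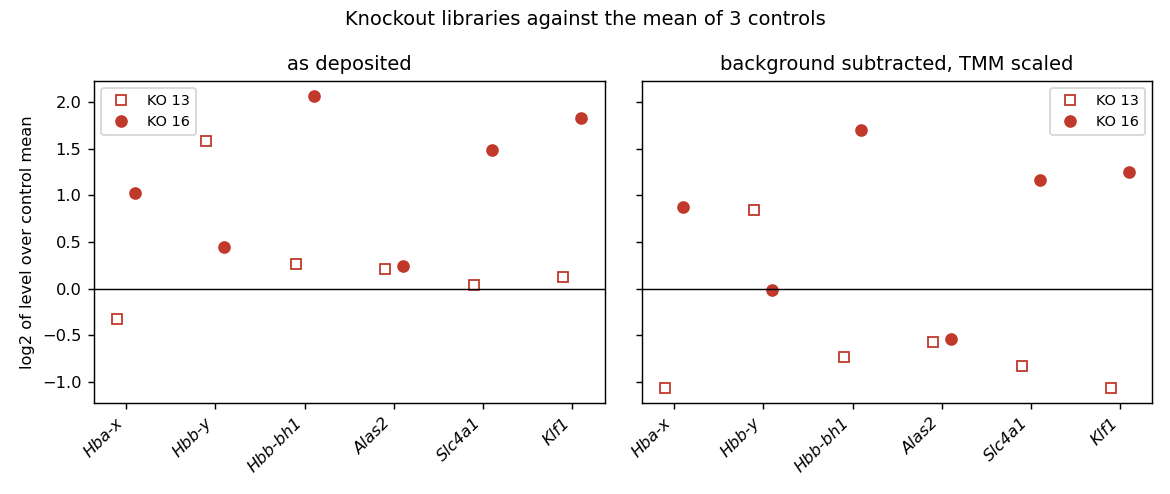
The log2 ratio of library 13 (open squares) and library 16 (filled circles) to the mean of the 3 controls for each gene, as deposited (left) and with background subtracted and TMM factors (right). On the right, library 13 was at -1.06 and library 16 at 0.87 for Hba-x, and both were near -0.55 for Alas2, at -0.57 and -0.54.

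Ratios within a library do not depend on its scaling, and they separated Alas2 from Hba-x and Slc4a1. The ratio of Hba-x to Slc4a1 tags was 4.38 in library 13 and 4.09 in library 16, against 4.75, 5.15 and 6.62 in controls 9, 10 and 12. With background subtracted it was 5.28 and 5.09, against 5.51, 5.93 and 6.96. Hba-x itself spanned 138.18 to 487.27 tags over the same libraries, so the 2 genes kept within a narrow range of ratios while their levels moved by more. The knockout libraries had the lower ratios on both scales, by a small margin (4.38 in library 13 against 4.75 in control 9). Slc4a1 rests on 48 reads in library 13 and 32 in control 9. Their counting intervals overlapped, at 32.2 to 57.9 and 19.9 to 41.1 tags. The share of other gene pairs in such an order was not computed.

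The ratio of Hba-x to Alas2 was 2.5 in library 13 and 6.23 in library 16, against 4.34, 3.31 and 3.64 in the controls. Background subtraction widened this to 2.9 and 10.9, against 5.30, 3.76 and 3.78. The ratio of Slc4a1 to Alas2 was likewise high in library 16 alone, at 1.52, with 0.57 in library 13 and 0.914, 0.642 and 0.549 in the controls. These ratios were not tested, since the genes were chosen with results of these data known.

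**Figure D4:**
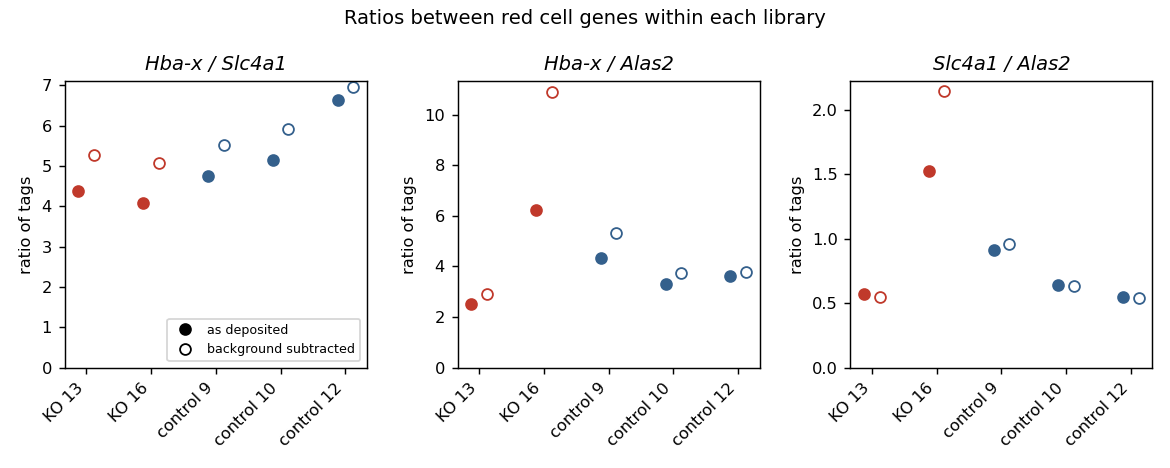
Ratios of tags between pairs of red cell genes in libraries 13 and 16 (red) and controls 9, 10 and 12 (blue), as deposited (filled) and with background subtracted (open). Hba-x over Slc4a1 stayed between 4.09 and 6.62 as deposited, while Hba-x over Alas2 reached 6.23 in library 16, or 10.9 with background subtracted.

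The authors' deposited table listed both Alas2 and Slc4a1, in opposite directions. It held 6 of the 69 red cell genes and members looked up (8.7%), against 5.3% of all genes tested here. In the authors' deposited table Alas2 had a log2 fold change of -1.63 (p = 5e-07, adjustment not given), with values of 10 for KO and 31 for WT. In the authors' deposited table Slc4a1 had a log2 fold change of 1.32 (p = 0.00251), with values of 20 for KO and 8 for WT. Neither the unit of those genotype values nor the libraries behind them were given in the sources used here. The all-gene table gave log2 changes of 0.35 for Alas2 and 0.79 for Slc4a1, neither past the threshold in limma. Relative to the median gene these were -0.62 and -0.18. Differences between the tables were not particular to these 2 genes. Of 451 genes tested here that the authors listed as lower, 426 had a higher level in the knockout libraries here. Relative to the median gene, 114 of those 451 were above it. Of 571 listed as higher, 260 were above the median gene. The difference between the tables was not tested. Neither Hba-x nor the beta-like members were listed in the authors' deposited table.

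The upstream sequences of Hba-x and Alas2 are shown because these 2 genes parted in library 16. They are the 150 bases before the RefSeq start, 5′ to 3′, from RefSeq's GRCm38.p6 on the plus strand (chr11:32276450-32276599 and chrX:150547267-150547416). Capitals mark GATA elements, CACCC boxes and CCAAT boxes, searched on both strands. For the first of these the letters AGATAA were searched along with the variant AGATAG that ends differently, and likewise the pair beginning with another base, spelled TGATAA in its first form and TGATAG in its second. The boxes have the letters of their names.
Hba-x: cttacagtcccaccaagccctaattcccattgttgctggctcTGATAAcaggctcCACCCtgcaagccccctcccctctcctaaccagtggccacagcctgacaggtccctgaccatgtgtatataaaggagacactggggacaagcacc
Alas2: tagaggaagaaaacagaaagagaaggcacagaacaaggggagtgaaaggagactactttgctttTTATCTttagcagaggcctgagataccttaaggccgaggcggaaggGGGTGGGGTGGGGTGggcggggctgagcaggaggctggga
GATA and KLF factors, Klf1 among them, are known to bind the first and second kind of element in red cell genes. In the 150 bases shown, Hba-x held TGATAA 108 bases and CACCC 95 bases before the start. Alas2 held the reverse complement of AGATAA 86 bases before the start. It also held the reverse complement of CACCC at 40, 35 and 30 bases, next to each other without overlap. Over the 250 bases upstream, a GATA element was present in 26.5%, a CACCC box in 52.0% and a CCAAT box in 33.8% of 32851 promoters, so such matches are common. Neither gene had a CCAAT box in its 250 bases, while Hbb-y, Klf1, Hba-a1 and Hba-a2 had 1 each. Promoters were found for 6 of the 9 genes. The others were Hbb-bh1, Hbb-b1 and Slc4a1.

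Other red cell genes were grouped by role in lists of 63 genes with a row, of which 62 were tested. None was called in either direction in limma, and 15 were at an unadjusted p under 0.05 (29.2% of all tested genes were). Both knockout libraries lay above every control for 33 of the 62 genes, close to the 50.2% of all genes, and below for 0. Their median log2 change was 1.065, against 0.97 for all tested genes.

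Genes of the red cell membrane and its skeleton were high in library 16, with none called by limma. Their median log2 difference from the control mean, with background subtracted and TMM factors, was -0.66 in library 13 and 1.66 in library 16, against 0.03 and 0.08 for all genes. Library 16 was above every control for 15 of the 16 genes tested on that scale (42.4% of all genes), and library 13 was below every control for 9 (20.2%). Sptb, which encodes beta spectrin, stood at 140 and 380.91 tags in libraries 13 and 16, against 73.64, 94.55 and 35.45 in the controls. Its adjusted p in limma, 0.0707, was the lowest of the whole fit and was shared by many genes. Ank1, which encodes the ankyrin that ties spectrin to band 3, stood at 140 and 553.64, against 109.09, 135.45 and 53.64. After subtraction and scaling library 13 lay within the controls for Sptb and Ank1. Sptb was then at 51.82 and 186.83, against 62.14, 39.74 and 15.76. Ank1 was at 37.26 and 291.11, against 98.73, 60.69 and 27.37. For Epb4.1, encoding protein 4.1, the deposited values were 561.82 and 505.45, against 214.55, 360.91 and 377.27. Protein 4.1 is also made in many other cells. On the subtracted and scaled values Epb4.1 was at 325.43 and 278.51, against 271.33, 275.99 and 375.03, within the controls in both libraries. Windows in this list had a median of 28806 bp, so more background tags are expected in them than in the shorter globin windows. A gene could also pass the filter through library 16 alone.

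Heme synthesis and iron supply genes took another course. Their medians on the same scale were 0.23 in library 13 and 0.21 in library 16. Library 16 was above every control for 6 of 13 genes (42.4% of all genes) and below for 4 (39.4%). Library 13 was above every control for 7 (23.6%) and below for 0 (20.2%). Both libraries were above every control for 3 (8.59%). Fech, which inserts iron into the heme ring, stood at 111.82 and 110 tags in libraries 13 and 16, against 41.82, 62.73 and 66.36 in the controls. On the subtracted and scaled values it was at 64.24 and 62.35, against 51.98, 45.99 and 65.10, within the controls. Tfrc, the transferrin receptor, stood at 311.82 and 94.55, against 83.64, 142.73 and 159.09. Slc25a37, the mitochondrial iron importer mitoferrin 1, stood at 200 and 222.73, against 101.82, 122.73 and 118.18. After subtraction and scaling Tfrc was at 200.04 and 59.83, against 120.11, 122.46 and 165.02, above every control in library 13 and below in library 16. Slc25a37 was then at 119.47 and 158.85, against 140.48, 97.09 and 118.30, within the controls in library 13 and above them in library 16. Tfrc is also used by dividing cells of other types.

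Erythroid transcription factors and receptors had medians of -0.39 in library 13 and 0.82 in library 16, and other red cell proteins -0.17 and -0.08. The 3 members of highest level in the first list, Sox6, Bcl11a and Ldb1, are also active outside blood. Sox6 stood at 892.73 and 1151.82 tags, against 505.45, 763.64 and 725.45, Bcl11a at 330 and 286.36, against 126.36, 235.45 and 259.09, and Ldb1 at 253.64 and 109.09, against 102.73, 160 and 120. After subtraction and scaling Sox6 was at 412.76 and 301.84, against 554.87, 494.31 and 674.41, below every control in both libraries. Bcl11a was then at 189.25 and 144.16, against 157.51, 181.46 and 259.08, within the controls in library 13 and below them in library 16. In the second list Prdx2, an antioxidant enzyme abundant in red cells, stood at 311.82 and 81.82, against 157.27, 229.09 and 183.64. Xpo7 and Bcl2l1, the others of highest level there, had relative log2 changes of -0.49 and -0.59.

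**Figure D5:**
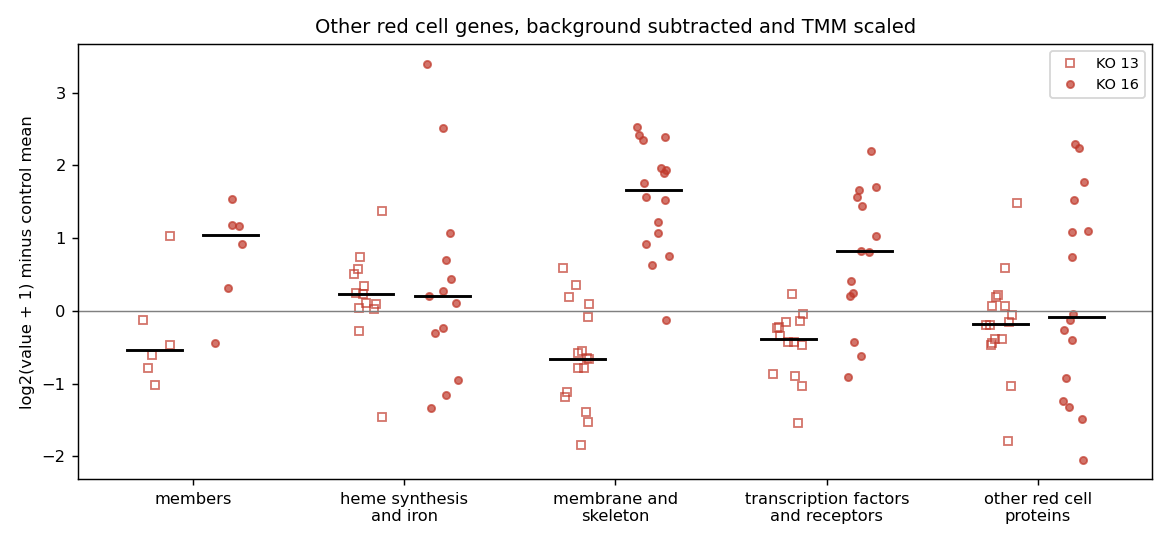
Difference in log2(value + 1) from the control mean for each gene of 5 groups in library 13 (open squares) and library 16 (filled circles), with background subtracted and TMM factors; black bars are medians. Membrane and skeleton genes had medians of -0.66 in library 13 and 1.66 in library 16, and heme synthesis and iron genes 0.23 and 0.21.

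Markers of other cells, except those of the pituitary, had higher summed deposited levels in library 16 as well. As deposited, 72.9% of all tested genes were above every control in library 16. The median difference of all tested genes from the control mean was 1.28 there on the log2 scale. The part of these markers in the results above was not tested. Fetal liver genes summed to 55.45 tags in library 13 and 194.55 in library 16, against 31.82, 24.55 and 12.74 in the controls. On the subtracted and TMM-scaled values 7 of 7 of them were above every control in library 16 (42.4% of all genes), at a median of 2.93. Genes at or near 0 in the controls, such as Alb, could pass the filter through the knockout libraries alone. Fgb passed with 8.14 in library 16 and 0 in every other library. Apoa2 was left out by the filter, at 1.03 in library 16 against 2.6 in control 9. The count of 7 of 7 therefore depends on the filter. Alb was then at 4.31 and 8.53, against 0 in every control, and Afp at 5.93 and 36.60, against 8.5, 2.02 and 0.92. Platelet markers summed to 100.91 and 226.37 tags, against 56.36, 88.18 and 52.73, with Gp1bb at 38.18 and 43.64, against 16.36, 29.09 and 26.36, and Gp6 at 18.18 and 60, against 6.36, 17.27 and 8.18. After subtraction and scaling, library 16 exceeded every control for 7 of 8 of them (42.4% of all genes). Gp9, left out by the filter, was at 0.58 in library 16 against 2.2 in control 10. Macrophage markers summed to 212.72 and 538.17, against 110.01, 191.81 and 93.64, and after subtraction and scaling library 16 exceeded every control for 4 of 9, near the 42.4% of all genes, and was below every control for 3 (39.4%). There Ptprc, the leukocyte antigen CD45, was at 12.09 and 0, against 7.32, 7.8 and 9.09, and Emr1 at 11.15 and 47.58, against 10.79, 27.46 and 13.76. Neutrophil markers summed to 33.64 and 104.53, against 26.37, 28.19 and 15.47, with Ltf at 10.91 and 50, against 12.73, 14.55 and 3.64, and Mpo at 10 and 20.91, against 8.18, 5.45 and 3.64. After subtraction and scaling, 4 of 6 exceeded every control in library 16 (42.4% of all genes); Ltf was at 0.01 and 15.98, against 10.61, 5.1 and 0.03, and Mpo at 3.51 and 6.16, against 8.72, 1.43 and 2.2.

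Endothelial markers, which mark vessel walls rather than their contents, had medians of -0.18 (library 13) and -0.16 (library 16) on those values, against 0.03 and 0.08 for all genes. Flt1 stood at 150.91 and 428.18 tags, against 101.82, 100.91 and 73.64, and Tek at 121.82 and 263.64, against 59.09, 104.55 and 66.36. After subtraction and scaling library 13 lay within the controls for both: Flt1 was at 48.29 and 183.53, against 92.21, 33.32 and 50.61, and Tek at 37.94 and 61.38, against 37.4, 46.88 and 47.64. Pituitary primordium genes were present in every library, and their summed level was highest in library 13. Pitx1 stood at 283.64 in library 13 and 98.18 in library 16, against 97.27, 137.27 and 148.18. The medians of the pituitary list were 0.47 (library 13) and -0.84 (library 16) after subtraction and scaling. Library 13 was then above every control for 6 of 8 of these genes (23.6% of all genes) and below for 1 (20.2%). Library 16 was below every control for 6 (39.4%) and above for 1 (42.4%).

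The 5 genes whose profile over the 5 libraries was closest to the mean of the 3 globin members were Mbd6, Mns1, Tbx18, Chek2 and Gm15471. Likeness was the root mean square difference of log2(value + 1), each gene centred on its own mean, among 12538 genes with a mean of at least 20 tags. These 5 lay at 0.25 to 0.37, against a median of 0.80. None belongs to the red cell lists, and Slc4a1 and Alas2 lay at 0.55 and 0.59. The mean globin profile gave equal weight to Hbb-y and Hbb-bh1, which rest on a few reads each.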

How the data were processed

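Libraries were strand-specific, prepared with ScriptSeq v2 after Ribo-Zero treatment and read on an Illumina HiSeq, per the labels' protocols. Bowtie2, HOMER, edgeR and mm9 are named, without roles, by the submitters' processing notes. Each value of the all-gene table is a signal the authors normalized to 10000000 total tags, as its deposited header says. The longest window per name was kept (20097 names of 21022 windows). All values were whole multiples of 10/11 tags within 0.01 reads (100.00%), so reads were recovered from them for count tests used as alternatives. The authors' deposited table gives log2 fold change, linear fold (ratio), p-value and, for each genotype, a score of no stated unit.

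Values as log2(value + 1) were tested by limma-trend (limma 3.58.1, R 4.3.3) for 19313 genes with a mean of at least 1, with Benjamini-Hochberg adjustment at 0.05. Such fold changes understate changes of low genes. Exact permutation tests covered all 10 arrangements of the samples. Alternatives used edgeR 4.0.16, DESeq2 1.42.0, other scalings, filters, pseudocounts and leaving out each library. Background came from 409 receptor genes, subtracted per kilobase with a floor of 0. The fits were tested on simulated counts. Named genes were all members, the 3 of highest level per red cell list when none was called, the 2 of highest level per marker list, the 5 of nearest profile and Itgb1. One gene that this rule names is not reported here. The members and lists were chosen with earlier results of these data known. Exon models were GENCODE M21 and promoters RefSeq, both GRCm38.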

Additional observations from a re-analysis of the deposited data

How the results depend on the processing

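No paired analysis was possible because the groups share no replicate numbers. Limma called 0 genes, and DESeq2 called 25 and limma with background subtracted 1, all lower and no member among them. DESeq2 gave no adjusted p for any member, so it could call none. With 1 library left out, limma or the edgeR quasi-likelihood test called between 0 and 7945 genes, 0 and 1 members, and 0 and 18 other red cell genes. Without library 13, background subtraction with TMM factors gave 2857 genes and 5 other red cell genes, and edgeR without library 16 gave 3 genes. The highest counts came from edgeR without library 13, where library 16 alone stood for the knockout and was assumed to vary like the controls; Alas2 was the member called there (log2 change -0.94, adjusted p = 0.0418, lower, against 0.0418 to 1 over its alternatives). Fits that left out a library with edgeR, or with background subtracted and TMM factors, were added after seeing the data. The directions of Hba-x, Alas2 and Slc4a1 turned with scaling: their log2 changes were -0.56, -0.64 and -0.19 with TMM factors, -0.54, -0.62 and -0.18 with median-of-ratios factors, -0.48, -0.67 and -0.034 in edgeR, and -0.55, -0.73 and -0.11 in DESeq2, whose adjusted p was not available for these genes. With background subtracted and TMM factors Hba-x was at -0.052 and Alas2 at -0.46. These scalings take off the shift of the median gene by construction. With 1 library left out the log2 changes ran from -1.13 to 1.11 for Hba-x, 0.10 to 1.75 for Hbb-y, -0.12 to 1.83 for Hbb-bh1, -0.94 to 0.66 for Alas2, -0.79 to 1.51 for Slc4a1 and -0.61 to 1.59 for Klf1. In limma Hba-x was at -0.235 without library 16 and Alas2 at -0.096 without control 9. In edgeR, Hba-x was at -0.655, -0.627 and -0.07 without controls 9, 10 and 12, -0.18 without library 13 and -1.127 without library 16; Alas2 at -0.92, -0.774 and -0.254 without those controls and -0.572 without library 16; and Slc4a1 at -0.118 and -0.138 without controls 9 and 10 and -0.751 without library 16. With background subtracted and TMM factors, Hba-x was at -0.186 and -0.127 without controls 9 and 10 and -1.016 without library 16; Alas2 at -0.755, -0.452 and -0.147 without controls 9, 10 and 12, -0.445 without library 13 and -0.474 without library 16; Klf1 at -0.002 without control 10; and Hbb-bh1, Slc4a1 and Klf1 at -0.125, -0.787 and -0.609 without library 16. The summed level of Hba-x, Hbb-y and Hbb-bh1 was 350 tags in the knockout libraries and 245 in the controls, a log2 ratio of 0.52, which became -0.55 with TMM factors and ran from -0.27 without library 16 to 1.03 without library 13. The embryonic share of beta-like reads was 44.4% in the knockout libraries and 19.5% in the controls as means of libraries, and with 1 library left out the difference ran from 17.7 to 33.8 percentage points. Hbb-y, Hbb-bh1 and Klf1 had too few reads for some filters and were then not fitted.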
